A study of Mus musculus with 4 samples.

Results

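The promoters described here are those of genes for subunits and receptors of the neurotransmitters GABA, glycine, glutamate, acetylcholine, dopamine and serotonin. They were chosen by gene symbol alone (Gabr, Glra, Gria, Grik, Grin, Grm, Chrna, Chrnb, Chrm, Drd and Htr genes). The rule uses no measured value but was set with earlier results of these data known. Of the 26354 promoters in the table, 81 fell under the rule. The families held 18 GABA-A, 4 glycine, 4 AMPA, 5 kainate, 7 NMDA, 8 metabotropic glutamate, 13 nicotinic acetylcholine, 5 muscarinic acetylcholine, 4 dopamine and 13 serotonin receptor genes. H3K9me2 was mapped by ChIP-seq in vascular smooth muscle cells (VSMCs), the contractile cells of the artery wall. The cells were the medial layer of aortas taken straight from untreated male C57Bl/6J mice, with the adventitia and endothelium removed by hand, and the animals' ages were not given. Experiments v102 and v134 were 2 independent ones, and each gave 1 library of H3K9me2 ChIP DNA and 1 of the matching input, DNA taken without antibody. No second tissue or treatment was sequenced, so the comparison is that of ChIP with input at each promoter, and how many animals were pooled in a library was not stated.

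H3K9me2, dimethylation of lysine 9 on histone H3, is a chromatin mark laid down mainly by the methyltransferases EHMT1 and EHMT2 and is found at genes kept silent in a given cell type. Neurotransmitter receptors are either ligand-gated ion channels built from several subunits or G protein-coupled receptors. Most serve signalling between neurons, while some serotonin and muscarinic receptors act in arteries, where they set vessel tone. Many neuronal genes carry a sequence called RE1, which the repressor REST binds outside the nervous system, and REST works with partners that include EHMT2.

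An RE1 match was searched in the window of 1 kb on either side of each transcription start site, on both strands. It had to fit an RE1 consensus of 16 letters at every position, some of which accept several bases or any base. The windows of 9 of the 81 receptor genes (11.1%) held a match, compared with 0.51% of the 24114 windows that could be placed in the genome. A match is a stretch of letters, not evidence that REST bound there. The search was chosen after the H3K9me2 values had been seen. Sites of 8 of these promoters are shown because 8 of the 9 were among the 17 receptor promoters with more ChIP than input reads described below. Each line gives the site in GRCm38 read 5′ to 3′ on the strand named, with the 16 matched letters in capitals.
Grin1, chr2:25319011-25319040, minus strand: atacgctTCAGCACCTCGGACAGcacccgc
Gria2, chr3:80802983-80803012, plus strand: ttcgattTTAGCACCGCGGACAGcgctttg
Glra1, chr11:55607931-55607960, plus strand: tgcaggtTCAGCACCACGGAGAGcgtccag
Glra3, chr8:55940757-55940786, minus strand: aggagctTCAGCACCTCAGACAGctcccgc
Drd2, chr9:49341193-49341222, minus strand: acgggatTCAGCACCAAGGACAGcagaaag
Drd3, chr16:43753919-43753948, plus strand: atctctcTCAGCACCAAGGACAGagagccg
Htr1a, chr13:105442782-105442811, minus strand: attgggtTCAGCACCCGGGACAGctctgtg
Chrnb2, chr3:89764451-89764480, minus strand: cgcggctTCAGCACCACGGACAGcgctccg
The matches of Grin1, Glra1, Glra3 and Chrnb2 lay in an untranslated part of an exon, 162, 252, 312 and 166 bases downstream of the start. That of Drd2 lay in an intron, 580 bases downstream. Those of Gria2, Drd3 and Htr1a lay 162, 92 and 842 bases upstream of the start.

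The next 3 sequences are the 250 bases before the RefSeq start (GRCm38.p6) of promoters that ended at opposite ends of the scale, with each CG in capitals.
Grin1, chr2:25319188-25319437, minus strand: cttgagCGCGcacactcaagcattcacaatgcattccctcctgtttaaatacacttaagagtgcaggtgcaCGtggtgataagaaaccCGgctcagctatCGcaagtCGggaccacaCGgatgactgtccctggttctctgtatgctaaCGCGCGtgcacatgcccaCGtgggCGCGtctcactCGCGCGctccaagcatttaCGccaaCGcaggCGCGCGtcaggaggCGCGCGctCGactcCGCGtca
Gabra6, chr11:42321073-42321322, minus strand: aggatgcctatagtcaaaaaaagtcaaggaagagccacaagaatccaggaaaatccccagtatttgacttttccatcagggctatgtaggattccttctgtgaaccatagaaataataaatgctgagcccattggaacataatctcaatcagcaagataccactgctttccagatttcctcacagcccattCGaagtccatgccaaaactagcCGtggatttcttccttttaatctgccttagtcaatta
Grik3, chr4:125490446-125490695, plus strand: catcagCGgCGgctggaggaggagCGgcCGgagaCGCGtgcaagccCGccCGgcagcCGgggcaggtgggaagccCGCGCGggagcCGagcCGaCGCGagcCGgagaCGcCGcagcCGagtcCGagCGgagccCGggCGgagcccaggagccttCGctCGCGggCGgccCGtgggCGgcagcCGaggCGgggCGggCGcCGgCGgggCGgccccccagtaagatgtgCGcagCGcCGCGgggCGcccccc
The Grin1 stretch held 27 CG, Gabra6 held 2 and Grik3 held 42, compared with a median of 6 over 27025 RefSeq promoters. As described below, Gabra6 and Grin1 both had high H3K9me2 (ratios of 1.02 and 0.804) and Grik3 had no ChIP read. Among these 3 the ratio fell as CG in this stretch rose, but 3 promoters picked from opposite ends of the scale show no trend. Of the 81 genes, 60 had a RefSeq promoter entry.

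Over the table, the ChIP libraries held 162233 and 229605 reads (v102, v134) and the input libraries 619100 and 1084349. At the median receptor promoter, ChIP reads numbered 6 and 4 and input reads 19 and 35, and 38 of the 81 reached 20 reads in both input libraries, so single promoters are measured with low precision. The H3K9me2/input ratio is the summed ChIP reads over the summed input reads, as deposited and unscaled for depth. Its median over all promoters was 0.162, its 75th percentile 0.343 and its highest value 2.67. The 30 promoters on the mitochondrial genome took 14.3% of the v102 input reads and 7.53% of the v134 input reads but 0.2% and 0.175% of the ChIP reads, which moves every ratio scaled by library totals. At Actb, the active control locus of the study, the ratio was 0.0119, and at its H3K9me2-marked control Magea2 it was 0.455 (adjusted p = 2.1e-04 and 0.170 in edgeR, respectively). Of 15 smooth muscle contractile gene promoters, 7 had fewer ChIP reads in the same test, among them Myh11 with 0 ChIP reads in both experiments, and 1, Smtn, had more (3 and 1 with the experiment as a block).

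Relative to the trimmed mean of all promoters (edgeR quasi-likelihood test with TMM scaling, Benjamini-Hochberg adjustment over all 26354 promoters), 17 of the 81 receptor promoters (21%) had more ChIP than input reads, against a background of 18.6% of all promoters. Fewer ChIP reads were called at 3 (3.7%), against a background of 17.0%. By these calls the receptor genes were near the background for H3K9me2-rich promoters, and few of them were among the H3K9me2-poor ones. With the experiment as a block, 14 were called higher (background 15.8%) and 1 lower (background 8.3%). In DESeq2, 13 were higher (background 11.6%) and 0 lower (background 0.102%), with an adjusted p undefined at 49 of the 81, and 1 was lower at an unadjusted p under 0.05. The log2 fold changes of the 17 ran from 1.08 to 2.53 and their ratios from 0.443 to 1.27, those of the 61 promoters not called from -2.04 to 0.75 and from 0.0488 to 0.347. The median log2 fold change over all promoters was -0.35. The top quartile of the mean log2 ratio held 17 of the 81 (background 25%), and that of the deposited ratio, the measure by which the study called promoters high, held 18. On the log2 scale, 16 were in the top quartile of both experiments (background 17.8%). All 16 of these were among the 17 promoters called higher. The plot by family shows that the high promoters were spread over most families rather than gathered in one.

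**Figure D1:**
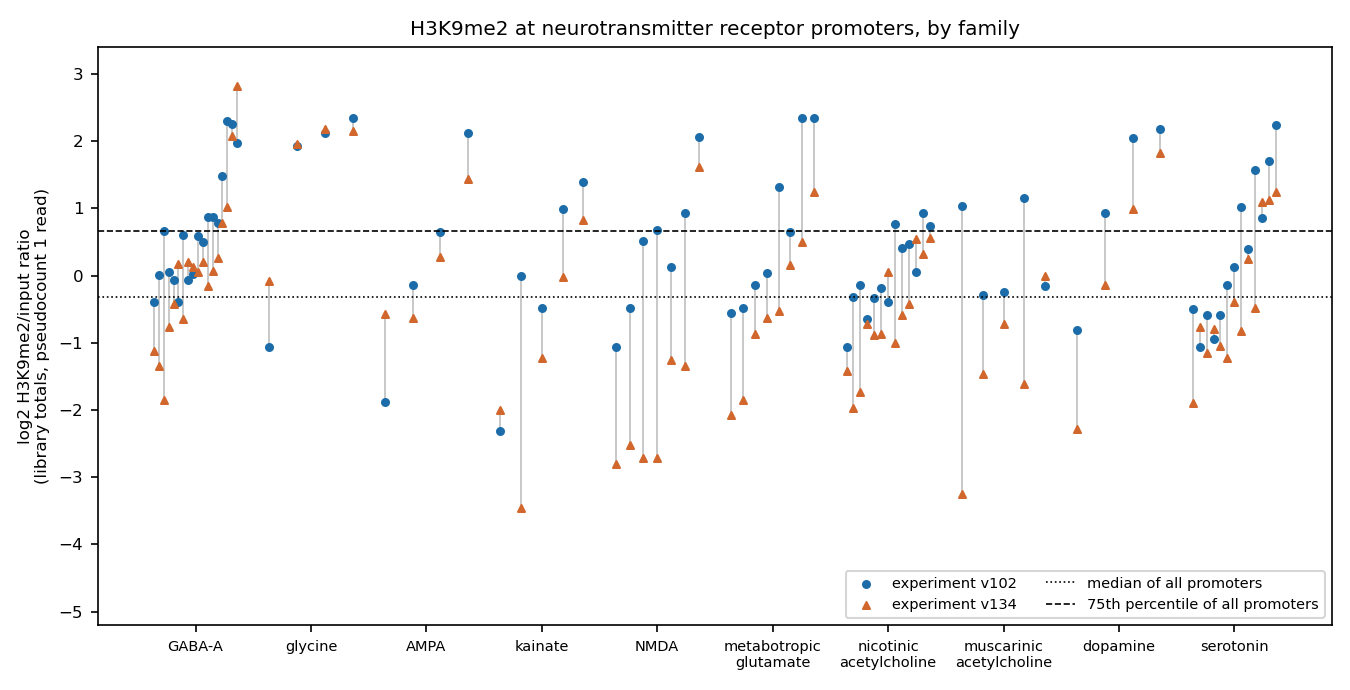
Log2 H3K9me2/input ratio (scaled by library totals, pseudocount 1 read) of each of the 81 receptor promoters, by family. Circles are experiment v102, triangles v134, and a grey line joins the values of 1 promoter. The dotted and dashed lines mark the median and the upper quartile of all promoters by mean log2 ratio. In every family except the nicotinic and muscarinic ones, at least 1 promoter had both of its values above the dashed line.

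The inhibitory channels, GABA-A and glycine receptors, which pass chloride, held 7 of the 17 promoters called higher and none of those called lower. Gabrg1 and Gabrg3 encode gamma subunits, of a class that many synaptic GABA-A receptors carry. Gabrg1 had 21 and 20 ChIP against 16 and 48 input reads, a log2 fold change of 1.67 (SE 0.39, edgeR adjusted p = 1.81e-04). Gabrg3 had 10 and 11 ChIP against 14 and 32 input reads, with a log2 fold change of 1.14 (SE 0.48). Its edgeR adjusted p of 0.0496 was just inside the threshold and rose to 0.096 with the block, and its window overlaps that of Gm9962, with which it may share reads.

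Gabra6, an alpha subunit known for its restriction to cerebellar granule cells, had 24 and 33 ChIP against 19 and 37 input reads, a ratio of 1.02 (95% Wilson interval 0.705 to 1.47) and a log2 fold change of 2.29 (SE 0.37, edgeR adjusted p = 2.06e-08). No call was made at 14 of the 18 GABA-A promoters, and their ratios lay between 0.102 (Gabrb2) and 0.311 (Gabrp). The beta subunit genes Gabrb1 and Gabrb2, of a class that every common GABA-A receptor contains, had ratios of 0.274 and 0.102.

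Most GABA-A subunit genes sit in clusters in which alpha, beta and gamma genes lie side by side, and the H3K9me2/input ratio differed between some neighbours. On chromosome 11, Gabra6 (start at 42321072) was called and its neighbour Gabrb2 (42419757) was not, with 3 and 2 ChIP against 19 and 30 input reads. The Wilson interval of Gabrb2 (0.0419 to 0.249) ended below the lower bound of Gabra6, which is a comparison of counting error only. On chromosome 5 the gamma gene was the highest, with ratios of 0.641 at Gabrg1, 0.308 at Gabra2, 0.274 at Gabrb1 and 0.176 at Gabra4, the last 2 of which share reads through overlapping windows. On chromosome 7, within 123 kb, the ratios were 0.457 at Gabrg3 and 0.114 at Gabra5. The Wilson intervals of Gabrg3 (0.274 to 0.761) and Gabra5 (0.0464 to 0.278) overlapped. So did those of Gabrg1 (0.434 to 0.946) and Gabra2 (0.195 to 0.484), while that of Gabra4 (0.0760 to 0.410) ended below Gabrg1. Neither Gabra3 nor Gabrq on the X chromosome was called (both ratios 0.120, from 3 ChIP reads each). The male X gives fewer input reads, 7 and 18 at Gabra3 and 10 and 15 at Gabrq.

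**Figure D2:**
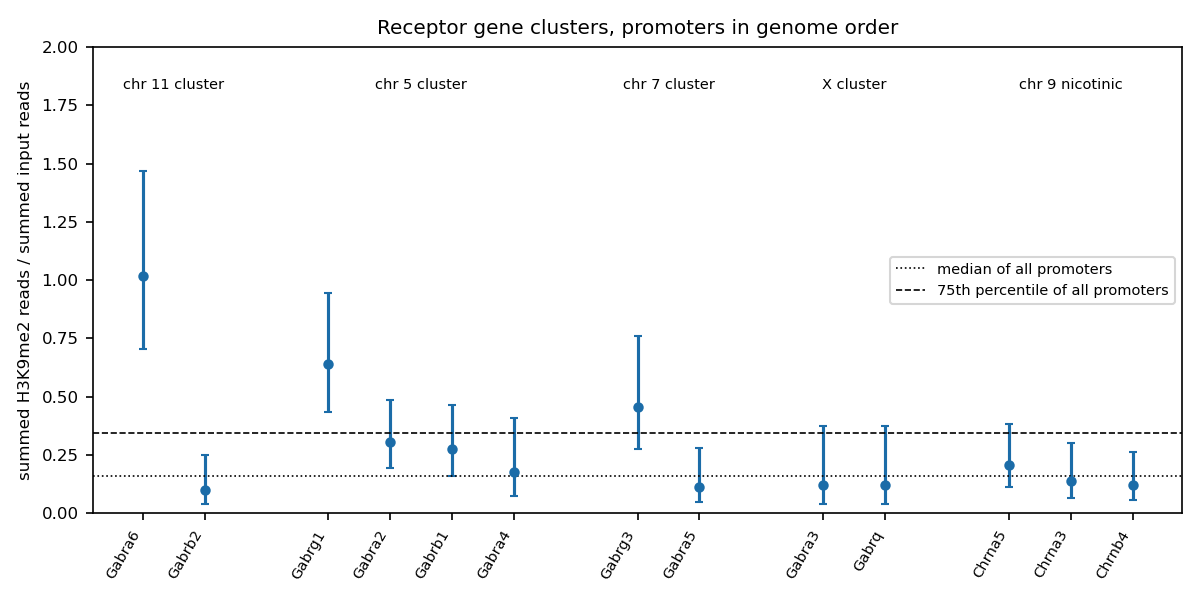
Summed H3K9me2 reads over summed input reads at promoters in GABA-A and nicotinic subunit gene clusters, in genome order. Points are ratios over both experiments at the promoters described in the text, bars their 95% Wilson intervals (counting error only), and the dotted and dashed lines the median (0.162) and 75th percentile (0.343) of all promoters. Gabra6, Gabrg1 and Gabrg3 are the points above the dashed line.

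Glycine receptors carry fast inhibition in spinal cord and brain stem, and 3 of the 4 alpha subunit genes were called higher. Glra2, the alpha subunit of the embryonic receptor, had 19 and 33 ChIP against 14 and 35 input reads. Glra3 had 23 and 26 against 20 and 27. Glra1, the adult subunit in which loss of function gives startle disease, had 18 and 22 against 18 and 27. The 3 log2 fold changes were 2.35 (SE 0.38), 2.30 (SE 0.39) and 2.08 (SE 0.41), with edgeR adjusted p values of 2.72e-08, 9.69e-08 and 5.86e-06. Both experiments put each of the 3 above percentile 93.3 of all promoters. The remaining gene, Glra4, had 1 and 3 ChIP against 15 and 19 input reads and was not called (edgeR adjusted p = 0.426). Glrb, the beta subunit that anchors these receptors and lies outside the symbol rule, had 5 and 2 ChIP against 23 and 27 input reads (ratio 0.140, edgeR adjusted p = 0.489).

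Among the ionotropic glutamate receptors, which carry fast excitation, each subfamily had 1 promoter with more ChIP reads. In the AMPA family it was Gria2, whose edited subunit makes the channel impermeable to calcium, with 15 and 15 ChIP against 13 and 27 input reads and a log2 fold change of 1.85 (SE 0.44, edgeR adjusted p = 3.28e-04). The other 3 AMPA genes had ratios of 0.0606 (Gria3), 0.143 (Gria1) and 0.288 (Gria4). In the NMDA family it was Grin1, the subunit that every NMDA receptor needs, with 22 and 23 ChIP against 20 and 36 input reads, a ratio of 0.804 (95% Wilson interval 0.544 to 1.19) and a log2 fold change of 1.95 (SE 0.38, edgeR adjusted p = 7.39e-06). The 6 genes for its glycine- or glutamate-binding partners all had ratios of 0.146 or less. One of them, Grin2d, had 2 and 0 ChIP against 23 and 32 input reads and was called lower (log2 fold change -2.48, SE 0.90, edgeR adjusted p = 0.0215), a call lost with the block (0.069). In the kainate family it was Grik1, with 12 and 11 ChIP against 18 and 31 input reads and a log2 fold change of 1.17 (SE 0.46, edgeR adjusted p = 0.0356, and 0.0741 with the block).

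Grik3, another kainate subunit gene, was the only receptor promoter with 0 ChIP reads in both experiments (background 1.98% of promoters), against 18 input reads in each. A count of 0 allows up to 3 reads, or a ratio of 0.0833, and the Wilson interval reached 0.107, below the median of all promoters. It was called lower in edgeR (adjusted p = 0.00645, and 0.041 with the block), and the fitted fold change against 0 reads has no meaning as a size. Grik4 had 5 and 0 ChIP against 22 and 51 input reads and fell just outside the threshold (log2 fold change -1.56, SE 0.66, edgeR adjusted p = 0.0506). With library totals in place of TMM it was called lower (edgeR adjusted p = 0.0305).

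The metabotropic glutamate receptors are G protein-coupled. Grm5, whose receptor signals through phospholipase C, had 15 and 13 ChIP against 11 and 46 input reads (log2 fold change 1.29, SE 0.43, edgeR adjusted p = 0.0113), a call lost in DESeq2 (adjusted p = 0.0906). Grm5 was the only one of the 17 outside the top quartile of an experiment, at percentile 97.0 in v102 and 71.7 in v134. The 6 genes of groups II and III, which lower cyclic AMP, were not called, with ratios from 0.0625 (Grm8) to 0.308 (Grm2).

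No acetylcholine receptor promoter was called among 18 in edgeR, where 1, Chrna1, had an unadjusted p under 0.05 with fewer ChIP reads, or in DESeq2. With library totals in place of TMM, Chrna1 was called lower. Over the 13 nicotinic subunit genes, which form cation channels, the ratios ran from 0.0667 at Chrna1, the muscle alpha subunit, to 0.333 at Chrnb2, the main neuronal beta subunit. Chrnb2 had 9 and 14 ChIP against 22 and 47 input reads and was the 1 promoter with an RE1 match that was not called (log2 fold change 0.69, SE 0.44, edgeR adjusted p = 0.201). In the chromosome 9 cluster of ganglionic subunit genes, within 68 kb, the ratios were 0.207 at Chrna5, 0.140 at Chrna3 and 0.123 at Chrnb4. Chrna7, whose channel also occurs on non-neuronal cells, had 4 and 2 ChIP against 20 and 46 input reads (ratio 0.0909, edgeR adjusted p = 0.139). The 5 muscarinic receptor promoters lay between 0.103 and 0.189.

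Among the dopamine receptors, the D2-like genes Drd2 and Drd3, whose receptors lower cyclic AMP, were called higher and the third D2-like gene lower. Drd2 had 18 and 29 ChIP against 15 and 39 input reads, a ratio of 0.870 (95% Wilson interval 0.590 to 1.28) and a log2 fold change of 2.08 (SE 0.38, edgeR adjusted p = 1.46e-06). Drd3 had 13 and 15 against 12 and 37 (1.48, SE 0.44, edgeR adjusted p = 0.00418). Drd4 had 2 and 1 against 19 and 45 (-2.10, SE 0.78, edgeR adjusted p = 0.0254), a call lost with the block (0.0757). The D1-like gene Drd5 was not called (ratio 0.275). The other D1-like gene is listed as Drd1a, an older symbol that the rule does not take in, and had 1 and 1 ChIP against 32 and 49 input reads, with fewer ChIP reads called (log2 fold change -3.04, SE 0.81, edgeR adjusted p = 0.00135, and 0.00905 with the block).

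Of the 13 serotonin receptor genes, 3 were called higher. Htr1f, a receptor targeted by migraine drugs, had 20 and 19 ChIP against 16 and 39 input reads (log2 fold change 1.80, SE 0.40, edgeR adjusted p = 8.43e-05). Htr1a, the inhibitory autoreceptor of serotonin neurons, had 17 and 16 against 20 and 36 (1.51, SE 0.41, edgeR adjusted p = 0.00184). Htr5a had 9 and 18 against 20 and 41 (1.09, SE 0.43, edgeR adjusted p = 0.0347, and 0.0624 with the block). The other 10 had ratios between 0.0833 (Htr6) and 0.347 (Htr4).

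Of 10 receptors with a known part in arteries, Drd2 and Grin1 were called higher, as given above, and the other 8 were not called and stood between percentile 26.5 (Chrm2) and 61.5 (Htr2b) of all promoters. Htr2a, through which serotonin contracts arterial smooth muscle, had 2 and 3 ChIP against 23 and 31 input reads, a ratio of 0.0926 (95% Wilson interval 0.0381 to 0.225). Htr1b and Htr1d, the receptors of triptan drugs, each had 3 and 3 ChIP reads, against 22 and 38 and 22 and 41 input reads. None of the 3 was called (edgeR adjusted p = 0.176, 0.194 and 0.161). Htr2b had 8 and 2 ChIP against 16 and 24 input reads and Htr7, a receptor linked to vessel relaxation, had 4 and 1 against 20 and 21, with ratios of 0.25 and 0.122. Chrm3, which mediates the endothelium-dependent relaxation by acetylcholine, had 5 and 3 ChIP against 27 and 51 input reads (ratio 0.103, 95% Wilson interval 0.0503 to 0.209). Chrm2 had 6 and 0 against 12 and 44 (ratio 0.107). The adjusted p values of these 4 ran from 0.15 to 0.75 in edgeR, so at this depth they were not told apart from the typical promoter.

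Pooled over all 81 promoters, the H3K9me2/input ratio was 0.293, compared with 0.230 over the other 26273, or 1.28-fold (95% Wilson interval 1.20 to 1.36, for counting error only). In the 2 experiments the fold was 1.61 (v102) and 1.06 (v134), so the experiments differed more than the pooled fold differed from 1. Without the mitochondrial promoters in the reference, the fold was 1.38 in v102, 0.98 in v134 and 1.15 pooled. That change multiplies every fold against all other promoters below by 0.858 in v102, 0.926 in v134 and 0.902 pooled, and leaves the order of families as it is.

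The glycine receptor family had the highest pooled fold, 3.48 in v102 and 3.67 in v134 (pooled 3.60, 95% Wilson interval 2.89 to 4.49). The dopamine family followed with 2.51 and 1.59 (pooled 1.87), and GABA-A with 1.9 and 1.44 (pooled 1.63). These were the only families whose folds stayed above 1 in both experiments with and without the mitochondrial promoters, apart from the AMPA family at 1.54 and 1.14, which rested on Gria2 and was at 0.786 without it. The dopamine family was at 1.19 without Drd2, GABA-A at 1.34 without its highest promoter, and glycine at 3.21 without Glra2. Metabotropic glutamate (1.89 and 0.977), serotonin (1.41 and 0.921), NMDA (1.5 and 0.574), kainate (1.22 and 0.581) and muscarinic receptors (1.06 and 0.358) lay above 1 in v102 and below 1 in v134. The nicotinic family was below 1 in both (0.955 and 0.690). Neighbouring families in this order had overlapping Wilson intervals, apart from glycine and dopamine.

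**Figure D3:**
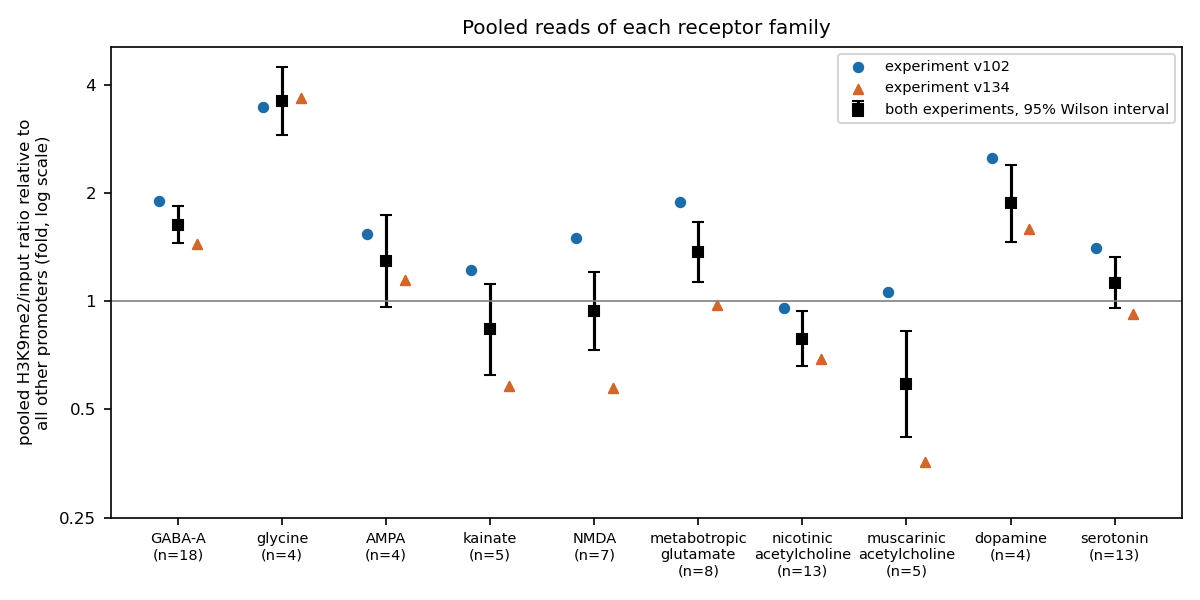
Pooled H3K9me2/input ratio of each receptor family relative to that of all other promoters, on a log axis. Circles are experiment v102, triangles v134, and squares both experiments with 95% Wilson intervals for counting error. Glycine receptors are highest in both experiments, and 5 families change side of the line at 1 between the experiments.

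Grouped by what the channels do, the 22 inhibitory subunit genes had a pooled fold of 1.93 (2.15 in v102, 1.77 in v134), with 7 called higher (background 18.6%) and 0 lower (background 17.0%), or 6 and 0 with the experiment as a block. The 31 excitatory subunit genes, which are the glutamate, nicotinic and serotonin-gated channels, had a fold of 0.868 (1.15 and 0.692), with 3 called higher and 2 lower, or 2 and 1 with the block. Channels as a whole (53 genes) and G protein-coupled receptors (28 genes) had pooled folds of 1.30 and 1.24, so this division made little difference to the pooled value. In v102 and v134 the folds were 1.57 and 1.12 for channels and 1.68 and 0.949 for G protein-coupled receptors. Among metabotropic glutamate receptors, group II stood at 1.07 and group III at 0.631.

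Both experiments put 28 of the 81 promoters above 0 on the log2 ratio scale and 29 below it, and 24 had opposite signs. The Spearman rho between the experiments over the 81 promoters was 0.646, compared with 0.689 over all 26354, given as a description, since promoters of 1 library are not independent. The 17 promoters called higher had positive values in both experiments, and the 3 called lower had negative values in both. The widest disagreement was at promoters with few reads, such as Chrm2 (1.04 in v102 and -3.25 in v134) and Grik4 (-0.01 and -3.46), each with 0 ChIP reads in v134.

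**Figure D4:**
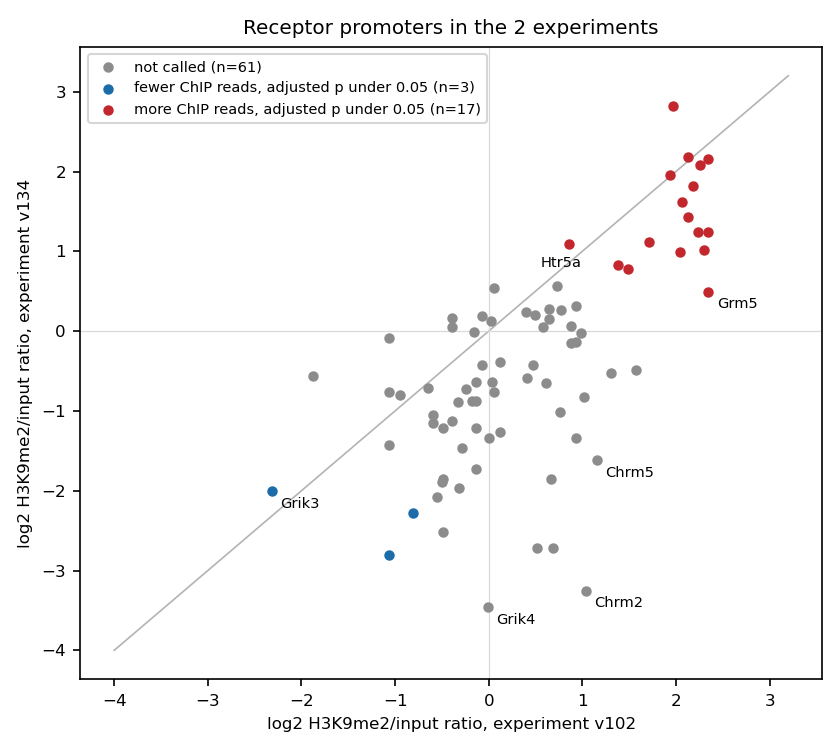
Log2 H3K9me2/input ratio (scaled by library totals, pseudocount 1 read) of the 81 receptor promoters in experiment v102 (x axis) and v134 (y axis). Red points had more and blue points fewer ChIP reads by edgeR at an adjusted p under 0.05, grey points were not called, and the grey diagonal is equality. Red points lie above 0 on both axes, and most grey points lie below the diagonal.

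The 9 promoters with an RE1 match had a pooled fold of 3.10 against all other promoters (3.87 in v102 and 2.67 in v134). Of the 9, 8 were called higher (background 18.6%). The 72 without one had a fold of 1.05 (1.35 and 0.85), with 9 called higher (12.5%, background 18.6%) and 3 lower (4.17%, background 17.0%). Their fold was 0.946 without the mitochondrial promoters, so most of the excess of the receptor promoters in pooled reads lay in the 9. Because the search was made after the values were seen, this is a description and was not tested. In the rest of the table, 114 promoters had a match. Against other promoters without one, mitochondrial ones left out, their fold was 1.41 (1.58 and 1.27). Of these 114 promoters, 33 were called higher (28.9%, background 18.6%) and 10 lower (8.77%, background 17.0%). The receptor promoters with a match stood at 2.06-fold these (2.19 and 2.01). Other promoters with a match differed by CpG class (defined below), at 1.66-fold their class where CpG was high, 2.2-fold where intermediate and 1.06-fold where low.

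CpG content was compared because H3K9me2 fell with it over the table. Windows were classed as high CpG when a stretch of 500 bases had an observed/expected CpG above 0.75 with a GC content above 55%, as low when none exceeded 0.48, and as intermediate otherwise. Over all placed promoters the Spearman rho of observed/expected CpG with the mean log2 ratio was -0.52, and over the 81 receptor promoters it was -0.11. For GC content in place of CpG, the rho was -0.54 over all placed promoters and -0.35 over the 81. Of the receptor promoters, 39.5% were high, 33.3% intermediate and 27.2% low, compared with 46.0%, 21.1% and 32.9% of all. Against other promoters of the same class, mitochondrial ones left out, the 32 high CpG receptor promoters had a fold of 1.60 (2.06 in v102 and 1.26 in v134) and the 27 intermediate ones 1.62 (1.87 and 1.44). The 22 low CpG ones had a fold of 0.610 (0.715 and 0.536). Many low CpG promoters are those of olfactory and vomeronasal receptors (1175 of 7899), and without these the fold was 0.706. Without the promoters that had an RE1 match the folds were 1.23 (1.68 and 0.896), 1.35 (1.57 and 1.19) and 0.574 (0.669 and 0.505), so the high CpG ones were above their class in v102 and below it in v134. The low CpG receptor promoters were below their class in both experiments.

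**Figure D5:**
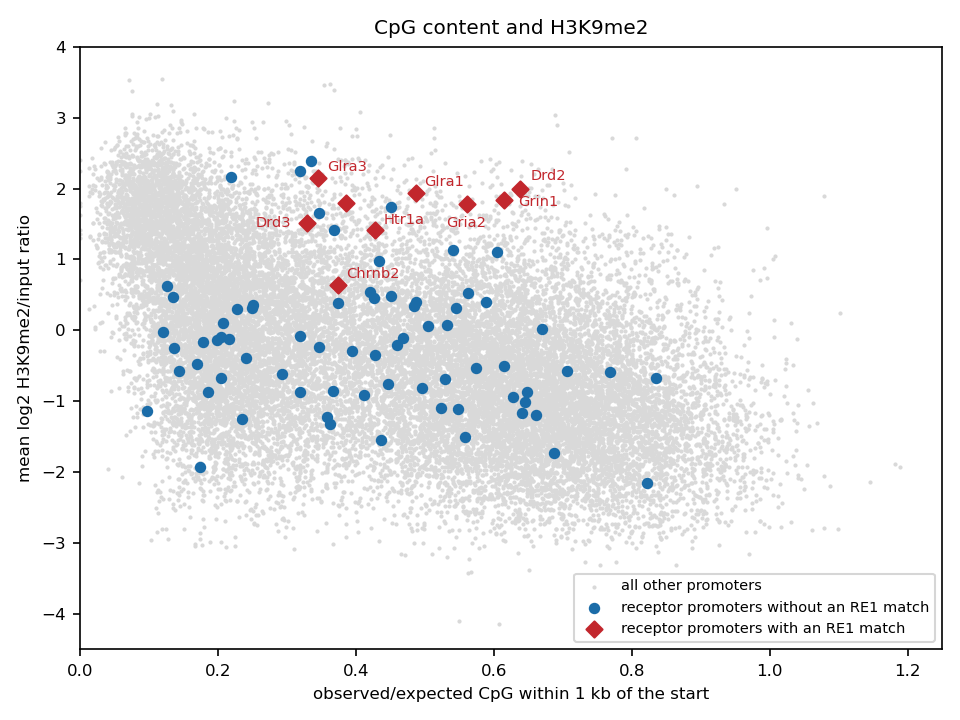
Mean log2 H3K9me2/input ratio over both experiments (y axis) against observed/expected CpG within 1 kb of the start (x axis). Grey points are all other promoters, blue points the 72 receptor promoters without an RE1 match, and red diamonds the 9 with one. All red diamonds lie above 0, while the blue points spread over both sides of it.

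Other genes of neurotransmission were compared through lists by function. Of 9 receptors of the same transmitters outside the rule, among them the GABA-B genes Gabbr1 and Gabbr2, none was called in edgeR over the whole table or in DESeq2 (1 was lower at an unadjusted p under 0.05 in edgeR), and their pooled fold was 0.711. When edgeR was run with at least 20 reads required in each input, 1 of them was called higher. Of 25 adrenergic and purinergic receptor genes, 1 was higher (Adora3) and 4 were lower (Adora1, Adra2c, Adrb1 and Adrb3). Of 30 genes for synaptic scaffolds and auxiliary subunits, 6 were higher and 9 lower. The 6 included Cacng3, a partner of AMPA receptors, with 27 and 29 ChIP against 26 and 30 input reads (log2 fold change 2.23, SE 0.37, edgeR adjusted p = 5.29e-08), and the synaptic adhesion gene Nlgn1. Gphn, the scaffold that holds glycine and GABA-A receptors at synapses, was among the 9, with 0 and 3 ChIP against 31 and 39 input reads (log2 fold change -2.28, SE 0.76, edgeR adjusted p = 0.0119). Of 29 genes for transmitter synthesis, vesicular loading and uptake, 6 were higher (Chat, Slc17a6, Slc6a5, Th, Tph2 and Ddc) and 1 lower (Slc32a1). The backgrounds of 18.6% higher and 17.0% lower given above hold for these counts too, and those of 15.8% and 8.3% for counts with the block. With the experiment as a block, the calls were 1 higher and 1 lower for adrenergic and purinergic receptors, 6 and 3 for scaffolds and auxiliary subunits and 4 and 0 for synthesis, loading and uptake. Among marker genes of other cell types, 1 of 6 neuron promoters was called, Snap25, with a ratio of 1.05. Endothelial markers had 2 higher and 1 lower of 7, leukocyte markers 2 higher and 0 lower of 6, Schwann cell markers 0 and 1 of 3, and adipocyte markers 0 and 0 of 4 in edgeR, and at these promoters the reads show chromatin and not the number of cells. The block changed these calls to 1 higher and 0 lower for endothelial and to 0 and 0 for Schwann cell markers, and left the leukocyte and adipocyte counts as they were.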

How the data were processed

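ChIP-seq libraries of H3K9me2 and input from 2 experiments were used. According to the paper's methods, the authors trimmed paired reads, mapped them to GRCm38 using Bowtie2, and used SeqMonk to count those falling within 1 kb of a gene's start site. The submitters' processing notes name Trim Galore 0.4.2, cutadapt 1.9.1 and Bowtie2 2.2.7. The annotation release, the start site chosen per gene and how duplicates were handled are not given in the sources used here. The deposited table holds raw read counts per promoter in each of the 4 libraries, not normalized, with their sums. It also holds a ratio, the summed ChIP reads divided by the summed input reads, which the authors did not scale for depth.

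Counts were fitted with edgeR 4.0.16 in R 4.3.3 (glmQLFit, glmQLFTest, TMM, 2 ChIP against 2 input libraries) over all 26354 promoters with Benjamini-Hochberg adjustment and a threshold of 0.05, with DESeq2 1.42.0 as the alternative tool. The edgeR script was tested on simulated counts with a dispersion of 0.02. Of 50 promoters at each fold, 44 were called at a fold of 4, 2 at 2, 0 at 0.5 and 5 at 0.25. Under that setting small changes and most decreases were missed, so a promoter not called may still differ from the typical one. Each SE is the size of the log2 fold change over the root of its F statistic. According to the paper's methods every ChIP has an input of its own, and the libraries are therefore paired by experiment number. The ChIP difference and input difference between experiments had a correlation of 0.0783 across promoters. Log2 ratios per experiment were scaled by library totals with a pseudocount of 1 read. Totals are sums over the table, not sequencing depth. Wilson intervals at 95% were derived from ChIP reads as a share of all reads at a promoter, and they and the limit of 3 reads for a count of 0 hold counting error alone, because the reads carried no molecular identifiers and may be copies of 1 molecule. Pooled folds carry no test.

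Start sites were taken from GENCODE M21 by symbol, which placed 24114 of the 26354 symbols and all 81 receptor genes, and need not be the authors' own. Windows of 6 receptor genes overlap that of another listed promoter (Gabra4 and Gabrb1 each other, Grik5, Grm6, Grm7 and Gabrg3 other genes). Promoters were named by rule: the highest and lowest of each family, the 10 largest and 5 lowest called changes, receptors with a known part in arteries, gene clusters and promoters with 0 ChIP reads. Some promoters that fall under this rule are not reported here. The other receptor promoters, and genes within lists, were named after their values were seen. The members and lists were chosen with earlier results of these data known. Python 3.11.15 was used with matplotlib 3.10.9, pysam 0.24.0, statsmodels 0.14.6, scipy 1.17.1, pandas 2.3.3 and numpy 2.4.6.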

Additional observations from a re-analysis of the deposited data

How the results depend on the processing

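With library totals in place of TMM, the median log2 fold change over all promoters moved from -0.35 to -0.50, and calls over the table went from 4902 higher and 4484 lower to 4303 and 5677. When both input libraries had to hold 20 reads, 38 receptor promoters could be tested, and 6 were higher (background 17.5%) and 0 lower (background 12%). The count of 3 lower promoters became 5 with library totals, 0 in DESeq2 and 1 with the replicate block. The block ended the calls of Drd4, Gabrg3, Grik1 and Grin2d among the 43 promoters named by rule and of Htr5a beside them, and it changed no other call of the 43. Library totals and DESeq2 each ended the calls of Gabrg3, Grik1 and Htr5a, DESeq2 also that of Grm5, library totals added Chrna1 and Grik4 as lower, and the filter ended that of Grin2d. None of the 43 changed direction in these fits. Leaving out an experiment leaves 1 library on each side, so those settings give values and no test.

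The pooled values below are log2 folds, and the cause of each change was not tested. The value over all 81 receptor promoters was 0.35. Taken class by class, it was 1.33 for the 27 intermediate CpG receptor promoters against others of that class with mitochondrial ones included, and for the 22 low CpG ones -0.71 against their class and -0.50 against it without olfactory, vomeronasal and mitochondrial promoters. These class settings, and the families without their highest member, were chosen after seeing the data. Requiring 20 reads in each input gave 1.18 for GABA-A (0.71), 2.48 for glycine (1.85) and 0.82 for NMDA (-0.09), from 7 of 18, 1 of 4 (Glra3) and 3 of 7 promoters, and left no dopamine promoter. Removing the GC trend gave 1.44 for glycine, 0.37 for kainate (-0.26), 0.087 for NMDA and 0.049 for nicotinic receptors (-0.35). Glycine was at 1.67 as a mean of log2 ratios, 1.70 without mitochondrial promoters and 1.98 on autosomes. Without the highest member the values were 0.42 for GABA-A, 1.68 for glycine, -0.35 for AMPA (0.37), -1.18 for NMDA, -0.80 for kainate, 0.26 for dopamine (0.90) and -0.058 for serotonin (0.17), and metabotropic glutamate fell to a fold of 1.00. With either experiment left out the range was -0.78 to 0.29 for kainate, -0.80 to 0.58 for NMDA, -0.033 to 0.92 for metabotropic glutamate (0.45), -1.48 to 0.083 for muscarinic receptors (-0.77) and -0.12 to 0.49 for serotonin. The count of receptor promoters in the top quartile (17 of 81, background 25%) was 30 with the GC trend removed and 16 to 28 with an experiment left out. The number of ChIP reads at single promoters limits all of these values.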
